A study of Mus musculus with 7 samples.

Results

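Thyroglobulin, the product of the mouse gene Tg, is the prohormone of the thyroid. It was followed here cell by cell, as 1 gene of the 30879 in a single-cell expression table. The table held 2590 cells of the thyroid gland and of thyroid follicular cell organoids (TFCOs), 3-dimensional cultures grown from the hormone-producing thyroid follicular cells (TFCs). Tg was read in every cell with at least 1000 unique molecular identifiers (UMIs, tags that count each captured RNA molecule a single time), which left 2035 cells: 578 from tissue and 1457 from TFCOs. The 7 samples were 2 of thyroid tissue, 3 of late passage TFCOs and 2 of early passage TFCOs, all from adult wild type C57BL/6 mice whose exact age the labels do not give. No treatment was applied. All TFCOs shared an expansion medium with forskolin, R-spondin 3, A83-01, EGF, FGF10, N-acetylcysteine, nicotinamide and B27. Single cells that excluded DAPI were sorted into 384-well plates for SORT-seq, a plate method that tags each well with a barcode, with no sort for TFCs, so tissue plates also held blood vessel, immune and connective tissue cells. The series text speaks of 2 biological replicates per kind of sample, whereas 3 late passage samples are present.

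In the gland, TFCs line a closed follicle. Thyroglobulin is folded in the endoplasmic reticulum (ER), secreted into the lumen, iodinated there, then taken back into the cell and cut by lysosomal proteases to release thyroid hormone. Iodide enters through the transporter encoded by Slc5a5, and the TSH receptor, acting mainly through cAMP, stimulates these steps. Tg therefore stands beside genes of iodide handling, protein folding and lysosomal proteolysis in TFC biology.

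Tg lies on chromosome 15 from 66670753 to 66850721 on the + strand of GRCm38 (ENSMUSG00000053469.14 in GENCODE M21), with 48 exons in a longest transcript of 8454 bases. A pair of genes on the opposite strand lies inside it. Sla shared 0 exon bases with Tg. The antisense gene Gm17140 shared 112 and had 9 UMIs in all cells kept, beside 197173 of Tg. Whether strand was used in counting is not given in the sources used here.

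The samples held 1406925 to 4703472 UMIs in all, and their kept cells had median depths of 3368 to 12380.5 UMIs. All 7 samples drew on 1 list of 384 well barcodes, of which 383 occurred in at least 2 samples. The level of Tg followed the barcode with a mean correlation of 0.0440 across cells of different TFCO plates that shared a barcode. Of 19498 genes, 21.5% lay above 0.05 on that measure. Tissue cells were clustered with Tg left out of the totals and of the genes used, and 1 cluster of 118 cells was called TFC-like from its other markers. Of these, 8 cells carried at least 10 UMIs of C cell or parathyroid markers and more of them than of TFC markers. They were set aside, which left 110 TFC-like cells, 56 in tissue sample 1 and 54 in tissue sample 2. Every TFCO cluster scored highest for the TFC list, although 1 of 106 cells stayed unnamed for its low depth. All TFCO cells were used. Values per cell are given as UMIs per 10000 UMIs of that cell.

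Tg was high in tissue TFCs and 11.4-fold lower in TFCOs. The mean over TFC-like cells was 1436 UMIs per 10000 in tissue sample 1 and 1037 in tissue sample 2. In late passage samples the means were 133, 76.6 and 154, and early passage samples gave 68.5 and 132. The sample means did not overlap between tissue and TFCOs. The means over samples were 1237 ± 282 (SD, n = 2) in tissue and 113 ± 37.8 (SD, n = 5) in TFCOs, and TFCO minus tissue was -3.51 on the log2 scale (exact two-sided permutation test, p = 0.0476, which is the smallest value that 2 samples against 5 allow). When UMIs were summed over cells, which lets deep cells weigh more, the difference was -2.94. A pair of cells of tissue sample 2 with 268847 and 151110 UMIs carried much of that sum, at 151 and 246 Tg UMIs per 10000, and without them the summed difference was -3.63.

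Passage made no difference that the samples could resolve. Late samples averaged 121 ± 40.0 (SD, n = 3) and early samples 100.0 ± 44.6 (SD, n = 2), a log2 difference of 0.29 (exact two-sided permutation test, p = 0.5, smallest possible 0.1). The order of the 5 values mixed both groups. Late sample 3 was highest, followed by late sample 1 and early sample 2 at nearly the same level, with late sample 2 and early sample 1 lowest. Without early sample 1 the sign turned, to -0.18. The 2 low samples were also the deepest, with median depths of 12380.5 and 11059 UMIs against 5011 to 8954 in the others. Among the TFCO samples they also had the largest shares of cells in the 2 clusters led by cell cycle genes, 17.5% and 20% against 3.83% to 7.44%. Outside both clusters mean Tg was 136, 79.6 and 162 in late samples 1, 2 and 3, and 72.0 and 135 in early samples 1 and 2, so the same 2 samples were lowest. With each cell thinned at random to 1000 UMIs, late samples gave 133, 77.7 and 152 and early samples 67.6 and 132. Thinning keeps the expected share of Tg in a cell, so the part of depth in the low level was not tested.

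No kept TFCO cell lacked Tg. A count of 0 allows a share of cells without a Tg UMI of up to 0.833% to 1.28% per TFCO sample and of 5.36% and 5.56% in the TFC-like tissue cells. TFCO cells ranged from 1.96 to 600.4 UMIs per 10000. In the middle 90% of cells the upper limit was 12.1 to 20.8 times the lower limit, depending on the sample. The median cell held 42.0 to 88.5 Tg UMIs in TFCOs and 257 and 208.5 in tissue. In tissue, TFC-like cells ranged from 23.9 to 4056, and in the highest cell Tg made up 40.6% of all UMIs. Tg was the most abundant gene by mean in 5 of 7 samples and the fifth in late sample 2 and early sample 1.

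**Figure D1:**
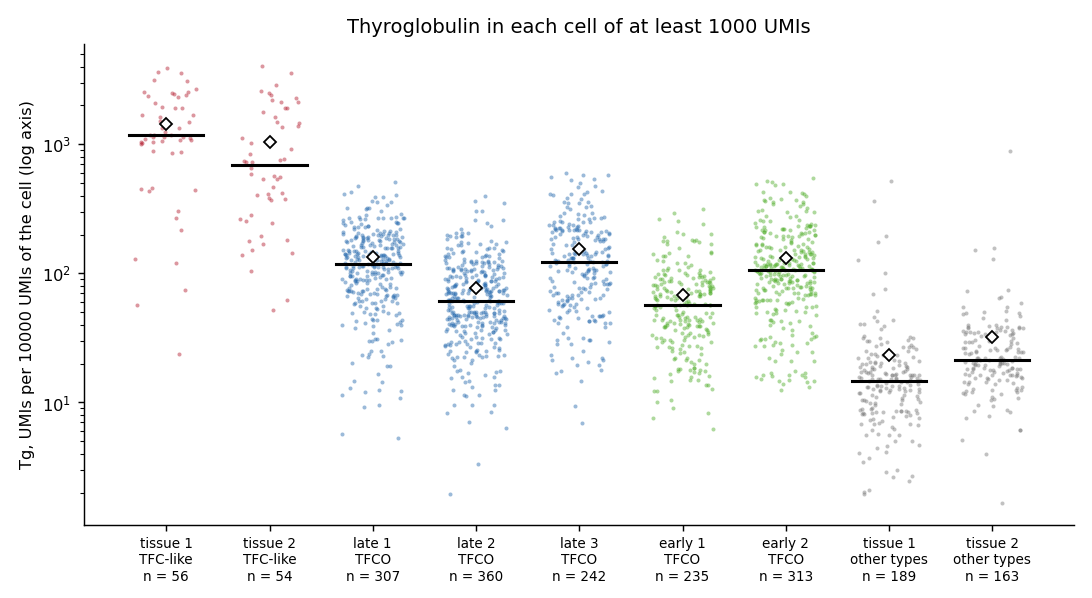
Tg in every cell of at least 1000 UMIs, as UMIs per 10000 UMIs of the cell on a log axis, by sample. Points are cells, bars medians and diamonds means. TFCO cells of the 5 samples lie between 1.96 and 600.4, and the tissue cells of other named types have medians of 14.6 and 21.4.

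The spread between cells was wide in both settings. The coefficient of variation (CV, the SD over cells divided by the mean, with the part expected from counting taken off) was 0.669 and 0.922 in tissue TFC-like cells. Late TFCOs gave 0.650, 0.744 and 0.782, and early TFCOs 0.747 and 0.769. The TFCO values fell between the tissue values apart from late sample 1, which lay just below them. The CV differed by -0.0571 between TFCOs and tissue (exact two-sided permutation test, p = 0.524) and by -0.0328 between late and early TFCOs (p = 0.8, exact test). The first sign was not stable, at 0.0238 with a minimum of 2000 UMIs, 0.0827 with coarser clusters and 0.0696 without tissue sample 2. The 10% of TFCO cells with most Tg held 24.6% to 29.1% of all Tg UMIs of their sample. The CV of Tg was also ranked among genes with a mean of at least 5 per 10000, nearly all less abundant than Tg. It lay at the 46.0th to 81.0th percentile in TFCOs and at the 29.4th and 50th in tissue. In each sample some of these genes varied more than Tg.

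TFCOs and tissue overlapped only at the low end of the gland. No TFCO cell reached the median of the tissue TFC-like cells, 1069 UMIs per 10000. Of the TFC-like tissue cells, 21.4% in sample 1 and 48.1% in sample 2 lay within the range of TFCO cells.

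Tg was also read in cells of types not known to make it. All 352 endothelial-, mural-, immune- and stromal-like cells of the tissue held Tg, with medians of 14.6 UMIs per 10000 in sample 1 and 21.4 in sample 2 and means of 23.4 and 32.3. Medians of the 4 types were alike, from 11.1 in mural-like to 15.5 in endothelial-like cells of sample 1 and from 19.0 to 23.9 in the same types of sample 2. In these cells 95% of values lay under 54.6, 10 cells exceeded 100 (2.84%), and 1 exceeded the highest TFCO cell. The 108 tissue cells of unnamed clusters all held Tg too, with medians of 17.3 and 28.5 and means of 33.5 and 67.6, and 11 of them exceeded 100 (10.2%) and 1 the highest TFCO cell. The cells of the 4 named types had a median of 8 Tg UMIs at a median depth of 4334.5, whereas TFC-like cells had 236.5 at 2085.

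In the cells of other types Tg UMIs rose with depth, but less than in proportion. From the shallowest to the deepest tertile of cells, the median Tg UMIs per cell were 4, 6 and 10 in sample 1 and 7, 8.5 and 13 in sample 2, at median depths of 2632, 4410 and 7494 and of 2542, 4190 and 6452.5. Per 10000 UMIs the medians went down, from 17.3 to 11.3 and from 30.3 to 17.9. Tissue cells under 1000 UMIs, which were otherwise left out, were not classed and can include TFCs. Over all of them the medians were 83.2 and 111 per 10000 in samples 1 and 2, which is not a background of other types.

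**Figure D2:**
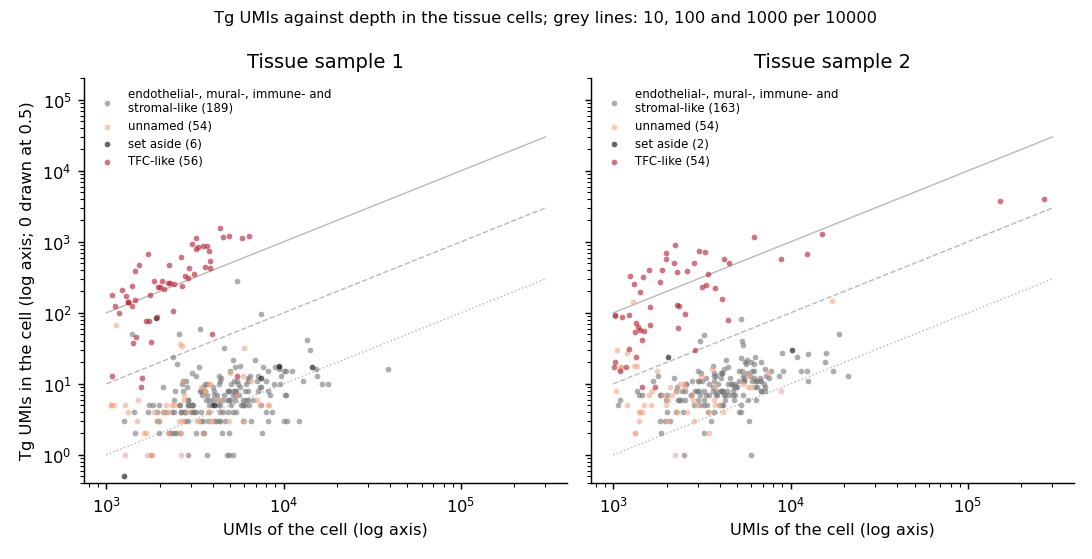
Tg UMIs against all UMIs of each tissue cell, on log axes, in tissue samples 1 and 2, with classes in colour and grey lines at 10, 100 and 1000 Tg UMIs per 10000. Cells of other named types form a band with a median of 8 Tg UMIs, and the TFC-like cells with 268847 and 151110 UMIs lie at 151 and 246 per 10000.

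In every TFCO sample most cells lay above the 95% point of Tg in the other tissue types. That point came from other plates and from cells with a median depth of 4334.5 UMIs, against 5011 to 12380.5 in TFCO samples. It therefore cannot place TFCO cells against a background of their own. The share of TFCO cells below 54.6 UMIs per 10000, the 95% point of the other tissue types, was 17.6% in late sample 1, 44.4% in late sample 2, 19.8% in late sample 3, 47.2% in early sample 1 and 19.5% in early sample 2 (exact binomial intervals from 13.5% at the lowest to 53.8% at the highest). Background was measured in the tissue samples alone. A plate of TFCO cells holds no cell type without Tg, so its own free Tg cannot be measured, and free RNA in TFCOs cannot be told apart from a low level in the cell.

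Genes whose level went with Tg from cell to cell were then sought within each sample, by a partial Spearman correlation with Tg given the depth of the cell. These values are descriptions without a p, since cells of a sample share its plate and library. They covered 7930 genes with a UMI in at least 10% of the cells of each TFCO sample, over 1457 TFCO cells and 110 tissue cells. Over all genes the mean of the 5 TFCO correlations had a median of -0.0064, with a 5% point of -0.0642 and a 95% point of 0.0652, and 29 genes exceeded 0.2.

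The highest correlations included those of Ctsl, a lysosomal cysteine protease that takes part in thyroglobulin breakdown (mean 0.349), and of Napsa, an aspartic protease of the lysosomal route (mean 0.340). Further down came the metallothionein Mt1 (0.306), Ccn4, a secreted matricellular protein (0.306), the lysosomal protease Ctsb (0.305), Scg5, a chaperone of secretory granules (0.305), and Mt2 (0.273). Npc2, a lysosomal cholesterol carrier (0.271), and Cst3, an inhibitor of cysteine proteases (0.269), were also among the 10 highest genes. All 10 were positive in 5 of 5 TFCO samples, as were 5.90% of all genes. They were chosen by the mean of these same 5 values, so the shared sign was largely built in and is no support. In both tissue samples 9 of them were positive, against 11.7% of all genes. The exception was Ccn4, at -0.218 and -0.135 in tissue. Only 3.57% and 9.26% of the TFC-like cells of tissue samples 1 and 2 held a Ccn4 UMI, so these values rest on few cells.

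The negative end was weaker. Stmn1, which destabilises microtubules and is high in dividing cells, was lowest with a mean of -0.218, followed by Gm49980 (-0.196), Actb (-0.195), Plekhs1 (-0.193), the receptor tyrosine kinase Alk (-0.189), Anxa1 (-0.161), Gstm1 (-0.156), Pgm2l1 (-0.152), Hmgn2 (-0.151) and the spindle factor Tpx2 (-0.146). Of these, Stmn1, Anxa1, Pgm2l1 and Tpx2 were negative in both tissue samples too, as were 38.7% of all genes. Tpx2 was near 0 there, at -0.026 and -0.012.

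The genes at both ends kept their sign between passages in most cases. The 10 genes highest in the 3 late samples had a median correlation of 0.305 there and 0.304 in the early samples, and all 10 were positive in both early samples, against 22.7% of all genes. Of the 10 lowest in late samples, all 10 were negative in both early samples, against 32.5% of all genes, with medians of -0.186 and -0.102. Of the 50 lowest, 37 were negative in both early samples.

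**Figure D3:**
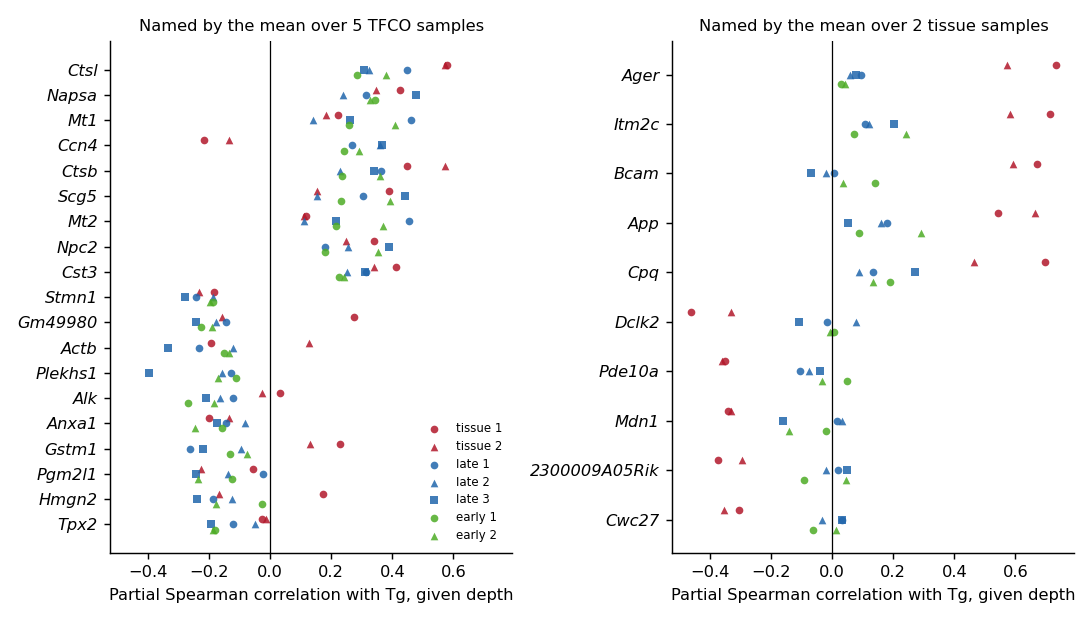
Partial Spearman correlation of each named gene with Tg across cells, given depth, 1 point per sample, with colours for tissue, late and early and marker shapes for the replicate. The left panel shows genes from the 10 highest and the 10 lowest by the mean of 5 TFCO samples, with Ctsl at 0.349 and Stmn1 at -0.218, and the right panel the 5 highest and 5 lowest by the mean of both tissue samples, with Ager at 0.653.

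To test such partners over samples rather than cells, each sample was split at its own median of Tg, and each gene was compared between the high-Tg and the low-Tg cells of the sample. Tg itself was 2.97 to 3.68 times higher in the high-Tg cells of the 5 TFCO samples. Because Tg takes a share of each cell's UMIs, levels in this comparison are per 10000 UMIs other than Tg, and differences are on the log2(level + 1) scale, which understates changes of low genes. Of 4703 genes with a mean of at least 0.5, 77 passed an adjusted p of 0.05 (limma, Benjamini-Hochberg over all genes tested), or 1.64%. High-Tg cells had more of 52 (1.11%) and less of 25 (0.532%). At an unadjusted p under 0.05 there were 680 genes (14.5%). Differences had the same sign in all 5 samples for 50 of the 52 and 20 of the 25. Over all genes 6.46% were higher and 6.63% lower in all 5 samples. The called genes passed on these same 5 values, so their shared sign was largely built in and is no support. The count moved to 33 without late sample 3, 29 without early sample 2 and 38 without late sample 1. Without the cells that held UMIs of at least 4 cell cycle genes (cycling cells below) it was 25. That cut took out 15.6% to 59.1% of the cells of a TFCO sample. The cells taken out had median depths of 8032 to 17004 UMIs, against 4235 to 9732 in the rest. The parts of depth and of the cell cycle in the lower count were not tested. Since the labels name neither the mice nor the cultures behind a sample, p-values measure the spread between these samples.

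Among genes of iodide handling, Slc5a5, the sodium iodide symporter, rose by 0.34 ± 0.08 (limma, adjusted p = 0.0351), from levels of 0.135 to 0.686 in low-Tg to 0.631 to 0.891 in high-Tg cells. That call was lost in 7 alternatives, among them without late sample 1, late sample 3 or early sample 2. The iodide transporter gene Slc26a7 gave 0.27 (limma, adjusted p = 0.0902) and had the same sign in 5 samples. The dual oxidase genes Duox1 and Duox2 with their partners, Slc26a4, Ano1, Dio1 and Kcne2 were too low to be tested.

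Thyroid transcription factors did not follow Tg beyond the replicate spread. All 5 were tested and 0 passed (limma). Nkx2-1 differed by 0.18 (adjusted p = 0.223, limma), Pax8 by 0.13 (adjusted p = 0.388, limma) and Glis3 by 0.11 (adjusted p = 0.485, limma). The mean Pax8 level was 4.20 in the 20% of cells with least Tg and 4.86 in the 20% with most. Within samples that ratio was 1.60, 0.886 and 1.53 in late samples 1, 2 and 3 and 0.637 and 1.36 in early samples 1 and 2.

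Genes of ER folding and export rose in part. Of 25 fixed, 23 were in the table and 19 were tested. Of these, 5 rose, 0 fell, 11 were higher in all 5 samples, and the median difference was 0.16, against -0.0071 over all genes tested. Among all genes tested 1.11% rose, 0.532% fell and 6.46% were higher in all 5 samples. Calr, a lectin chaperone of glycoproteins, had levels of 4.78, 7.36, 10.8, 6.07 and 5.61 in high-Tg and 3.70, 6.16, 7.88, 4.42 and 3.48 in low-Tg cells of late samples 1, 2 and 3 followed by early samples 1 and 2. Its difference was 0.39 ± 0.06 (SE, limma, adjusted p = 0.00264), positive in 5 of 5 samples. The disulphide isomerase Pdia6 rose by 0.32 ± 0.06 (limma, adjusted p = 0.00767) and the chaperone Hspa5, known as BiP, by 0.30 ± 0.07 (limma, adjusted p = 0.0392). Hsp90b1 and Manf were the other 2. Over 18 alternatives the Hspa5 call was lost in 8, with a highest adjusted p of 0.307 (limma) and a difference of 0.18 without early sample 2. The Calr call was lost in 2, without early sample 2 and, with its highest adjusted p of 0.320 (limma), after thinning to 1000 UMIs. The Pdia6 call was lost in 3, with no filter on low values, without cells of at least 4 cell cycle genes and after thinning. The ER oxidase Ero1b, absent under that symbol, appeared as Ero1lb, an older name, and rose by 0.28 (limma, adjusted p = 0.0426).

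The lysosomal proteases Ctsl and Ctsb rose. Ctsl (chromosome 13, 64359337 to 64370890, - strand) had levels of 28.3, 18.6, 27.8, 15.9 and 18.3 in high-Tg cells and 17.5, 13.7, 21.2, 11.3 and 11.1 in low-Tg cells of the same 5 samples in order. Each sample was higher on the high-Tg side. The difference was 0.52 ± 0.06 (SE, limma, adjusted p = 0.000305). Ctsb rose by 0.36 ± 0.06 (limma, adjusted p = 0.00264), with a highest adjusted p of 0.0511 (limma) over its alternatives. The endocytic receptor gene Lrp2, also called megalin, gave 0.23 (limma, adjusted p = 0.156). Of 12 genes of Tg uptake and proteolysis, 8 were tested, 2 rose and 0 fell, with a median of 0.17. Among all genes tested 1.11% rose and 0.532% fell. Outside that list, the protease genes Napsa (0.62 ± 0.07, limma, adjusted p = 0.000141) and Ctsa (0.27, limma, adjusted p = 0.0392) rose as well, as did Npc2 (0.41, limma, adjusted p = 0.00264), a call lost without early sample 2 and after thinning (highest adjusted p 0.0929, limma).

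**Figure D4:**
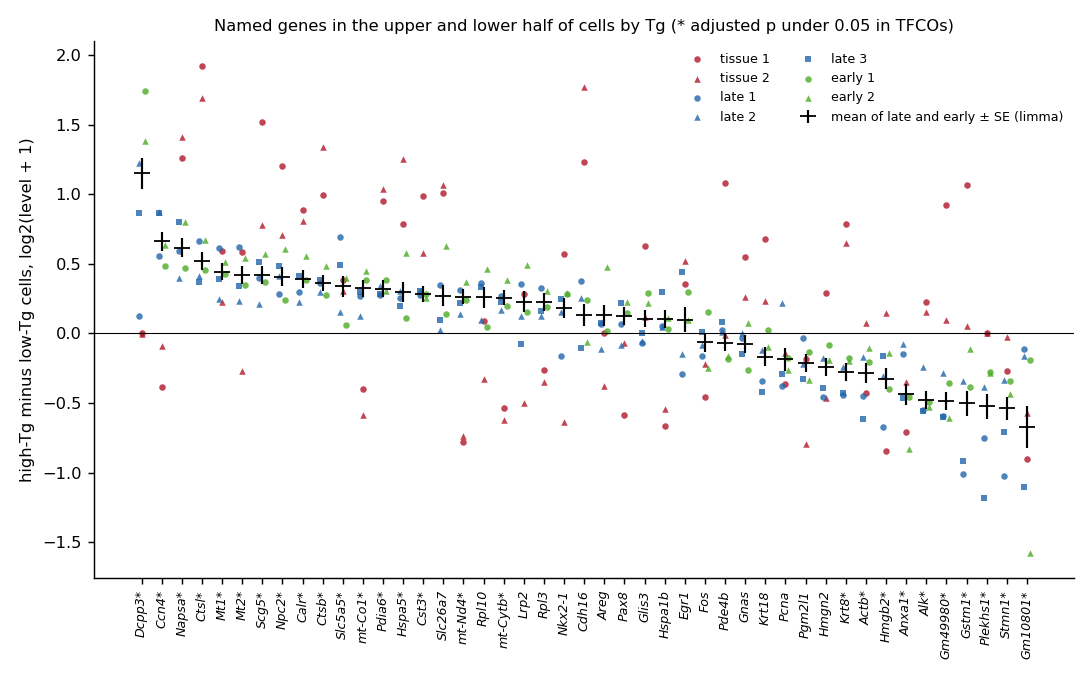
Difference between high-Tg and low-Tg cells on the log2(level + 1) scale for genes named and tested in TFCOs, ordered by the TFCO mean. Points are samples, black bars the limma mean ± SE over late and early, and stars an adjusted p under 0.05. Dcpp3 (1.15) and Ccn4 (0.66) lie left, Gm10801 (-0.67) and Stmn1 (-0.54) right, and mt-Co1 and Krt8 have tissue points on the other side of 0.

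The largest rise was that of Dcpp3, a secreted demilune cell and parotid protein gene of salivary gland, by 1.15 ± 0.11 (SE, limma, adjusted p = 4.62e-05). Its levels were uneven, 55.8 against 23.4 in late sample 2 and 40.3 against 11.3 in early sample 1, but 4.37 against 3.93, 6.41 against 3.05 and 4.63 against 1.16 in late samples 1 and 3 and early sample 2. A UMI was found in 94.4% and 85.5% of cells of the first pair of samples and in 17.9% to 32.2% of the others. Tissue TFC-like cells held 1 UMI in all. Dcpp2, a close copy, rose by 0.67 (limma, adjusted p = 0.0444), with opposite signs among samples, and the counting may share reads between both genes. The metallothioneins Mt1 and Mt2, also similar in sequence, rose by 0.44 ± 0.06 and 0.42 ± 0.06 (limma, adjusted p = 0.000661 and 0.00214). Scg5 rose by 0.42 ± 0.06 (limma, adjusted p = 0.00207).

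Ccn4 (chromosome 15, 66891320 to 66923201, + strand) is the next annotated gene after Tg, 40598 bases beyond its end and on the same strand, with 0 genes between. It was singled out for this position after its values were seen. It rose by 0.66 ± 0.07 (SE, limma, adjusted p = 5.46e-05), from 0.157 to 0.558 in low-Tg to 0.699 to 1.42 in high-Tg cells, and was higher in 5 of 5 samples. The ratio of Ccn4 to Tg was not the same throughout. It was 3.57, 10.9 and 4.97 Ccn4 UMIs per 1000 Tg UMIs in late samples 1, 2 and 3. Early samples 1 and 2 gave 11.2 and 6.69. Tissue sample 1 gave 0.0889 (2 UMIs, exact Poisson interval 0.0108 to 0.321). Tissue sample 2 gave 3.02 (69 UMIs, exact Poisson interval 2.35 to 3.82). Those tissue UMIs lay in 3.57% and 9.26% of TFC-like cells, with means over cells of 0.142 and 0.213 per 10000. The ratio sums UMIs, so deep cells weigh more, and the interval leaves out differences between cells. The part of the 2 deepest cells in the ratio of tissue sample 2 was not tested. Of the 10 genes annotated within 250000 bases of Tg, Phf20l1, which lies 22776 bases before it on the same strand, was the only other one tested, at -0.09 (limma, adjusted p = 0.598). Ndrg1, beyond Ccn4 and on the - strand, had a mean correlation with Tg of 0.0369.

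Cells with a low share of Tg carried more of 2 cell cycle genes. Stmn1 had levels of 0.376, 1.39, 0.717, 1.34 and 0.481 in high-Tg and 1.80, 2.01, 1.80, 1.97 and 1.00 in low-Tg cells of late samples 1, 2 and 3 followed by early samples 1 and 2, and fell by 0.54 on the log2 scale (SE 0.08, limma, adjusted p = 0.00253). The Stmn1 call was lost in 3 of 18 alternatives: without early sample 2 (limma, adjusted p = 0.0504), without cells of at least 4 cell cycle genes (limma, adjusted p = 0.0675) and after thinning (limma, adjusted p = 0.123). The chromatin protein gene Hmgb2 fell by 0.32 (limma, adjusted p = 0.0392). The Hmgb2 call was lost in 7 of 16 alternatives, each of the 5 that left out 1 sample among them, with a highest adjusted p of 0.617 (limma) after thinning. Of 18 cell cycle genes only 5 were tested, 2 fell and 0 rose, with a median of -0.18. Among all genes tested 0.532% fell and 1.11% rose. The share of cells in the 2 cell cycle clusters was lower among high-Tg cells in 5 of 5 samples, 1.31% against 8.44%, 12.8% against 22.2% and 1.65% against 13.2% in late samples 1, 2 and 3, and 15.4% against 24.6% and 0% against 7.64% in early samples 1 and 2. Mean Tg in those clusters was 42.3 to 64.8 UMIs per 10000, against 72.0 to 162 outside them. These values are shares of the UMIs of a cell. The 2 clusters had median depths of 15537 and 11702 UMIs, against 5011 to 12380.5 over all kept cells of the TFCO samples. Tg UMIs per cell were not compared. Leaving both clusters out gave 80 called genes, of which 60 were among the 77, with Stmn1 at -0.39 (limma, adjusted p = 0.00468).

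Other falls were those of Plekhs1 (-0.52, limma, adjusted p = 0.00405), the glutathione transferase gene Gstm1 (-0.50, limma, adjusted p = 0.0054), Gm49980 (-0.49, limma, adjusted p = 0.000631), Alk (-0.48, limma, adjusted p = 0.000661) and Anxa1 (-0.44, limma, adjusted p = 0.00471), and the largest was that of the predicted gene Gm10801 (-0.67, limma, adjusted p = 0.0334). The Gm10801 call was lost in 5 of 18 alternatives, without late sample 1, late sample 3 or early sample 2 among them, with differences from -1.02 to -0.33 and a highest adjusted p of 0.377 (limma). Those of Anxa1 and Gstm1 were each lost in 3 of 17 (highest adjusted p 0.531 and 0.249, limma), Anxa1 without early sample 2 and Gstm1 without late sample 3 or early sample 1, that of Plekhs1 in 2 of 18 (0.127), among them without early sample 2, and those of Gm49980 and Alk in 1 each. Among genes that fell, 52.0% followed the well barcode above 0.05, against 13.5% of those that rose and 31.1% of all genes tested. The actin gene Actb fell by 0.28 (limma, adjusted p = 0.0497), with an adjusted p of up to 0.396 (limma) over its alternatives. The keratin gene Krt8 fell by 0.28 (limma, adjusted p = 0.0374), a call lost in 11 of 18 alternatives. It was the 1 member called among 7 tested of 10 epithelial keratin and adhesion genes, whose median was 0.04.

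All 6 genes tested of 9 of the mitochondrial genome were higher in all 5 samples, as were 6.46% of all genes tested. Of them, mt-Co1, mt-Nd4 and mt-Cytb rose by 0.32, 0.27 and 0.26 (limma, adjusted p = 0.00793, 0.0153 and 0.0198). The calls of these 3 were lost in 5, 4 and 4 of 18 alternatives (highest adjusted p 0.320, 0.214 and 0.235, limma), and each was lost without late sample 1, late sample 3 or early sample 2. Ribosomal protein genes had a median of 0.06 over 83 genes tested. None of 5 tested cAMP response genes and none of 3 tested immediate early and stress genes passed (limma), with medians of -0.06 and 0.10. Among them were Areg (0.13, limma, adjusted p = 0.467) and Gnas (-0.08, limma, adjusted p = 0.648). Fos gave -0.06 (limma, adjusted p = 0.738).

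Levels over 5 equal bins of cells ranked by Tg showed how gradual these relations were. Tg rose from 27.9 to 246 UMIs per 10000 between the lowest and the highest bin, as the mean of 5 samples. Over the same bins Ctsl went from 12.96 through 15.5, 17.9 and 21.6 to 23.9, and rose at every step in 4 of 5 samples. Napsa went from 8.25 to 21.9, Mt1 from 59.7 to 111, Calr from 4.85 to 8.07 and Hspa5 from 6.07 to 9.41, while Stmn1 went from 2.20 to 0.771. Between the first and the last bin Tg differed 7.77- to 9.95-fold, Napsa 1.99- to 3.44-fold and Ctsl 1.48- to 2.25-fold. The ratio for Dcpp3 ran from 0.772 in late sample 1 to 14.1 in late sample 3.

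**Figure D5:**
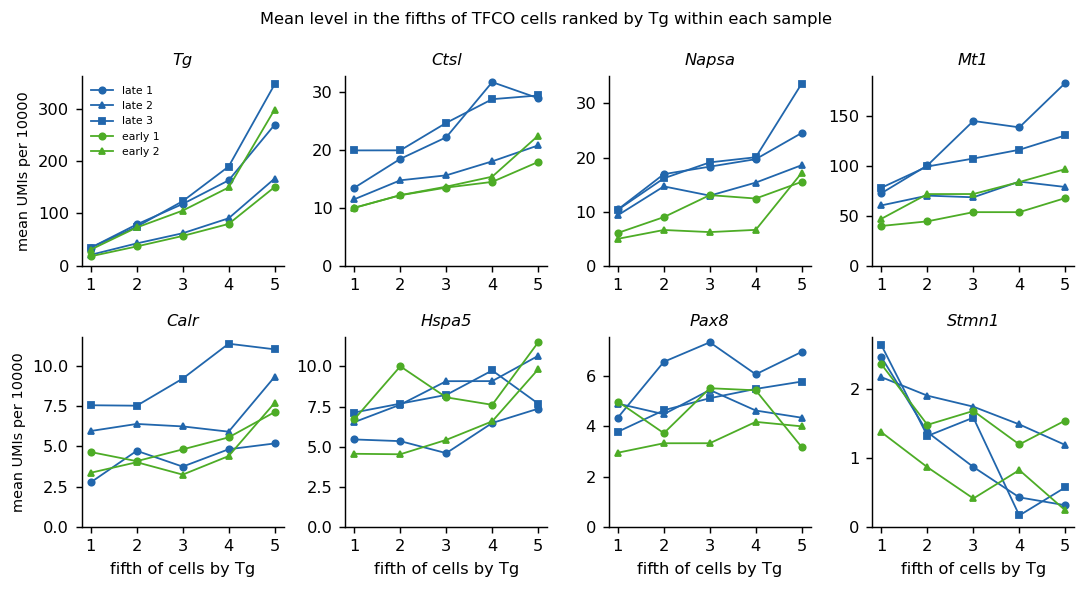
Mean level of Tg and 7 other genes in 5 equal bins of TFCO cells ranked by Tg within each sample, 1 line per sample, on linear axes from 0 in UMIs per 10000. Tg, Ctsl, Napsa, Mt1, Calr and Hspa5 are higher in the last than in the first bin in all samples, Pax8 goes from a mean of 4.20 to 4.86 with samples in both directions, and Stmn1 goes from 2.20 to 0.771.

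Whether these differences depended on passage was tested in the same fit. No gene of 4703 passed for late minus early (0.0%, limma), with 266 genes at an unadjusted p under 0.05 (5.66%) and 0 or 1 called under every alternative run. For Ctsl the difference between late and early was -0.08 (limma, adjusted p = 0.974), and for Napsa -0.04 (limma, adjusted p = 0.989).

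In tissue the same split compared few cells, 28 high-Tg with 28 low-Tg cells in sample 1 and 27 with 27 in sample 2. Tg was 3.07 and 5.45 times higher in the high-Tg cells. Ctsl had levels of 11.7 against 2.34 and 9.78 against 2.33, Ctsb 13.6 against 6.32 and 12.4 against 4.28, and Napsa 12.3 against 4.53 and 10.2 against 3.22. Hspa5 had 39.8 against 22.7 and 43.4 against 17.6. All 4 were higher in high-Tg cells of both samples, as were 26.0% of all genes tested, while 25.7% were lower in both. Of the 52 genes that rose in TFCOs, 32 were higher in both tissue samples and 6 lower. Of the 25 that fell in TFCOs, 9 were lower in both tissue samples and 7 higher. Of 19 tested ER genes 15 were higher in both, with a median of 0.69. The highest correlations with Tg in tissue were those of Ager, a receptor of advanced glycation end products (0.733 and 0.573), Itm2c (0.712 and 0.582), the laminin receptor gene Bcam (0.669 and 0.593), App, the amyloid precursor (0.544 and 0.664), and the carboxypeptidase gene Cpq (0.698 and 0.465). Their TFCO means were 0.0613, 0.148, 0.0190, 0.154 and 0.163. The lowest were Dclk2, Pde10a, Mdn1, 2300009A05Rik and Cwc27, from -0.396 to -0.328.

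High-Tg and low-Tg tissue cells also differed in depth, with medians of 2994.5 and 1781 UMIs in sample 1 and 2215 and 1616 in sample 2. Summed TFC markers other than Tg were 72.1 against 39.2 and 61.8 against 34.5 UMIs per 10000, with 11 and 9 of 12 markers higher. Of the other marker lists, the immune markers were higher and the mural and C cell markers lower in high-Tg cells of both samples, and the rest differed in direction. Endothelial markers summed to 6.96 against 9.13 in sample 1 and 13.8 against 9.62 in sample 2, immune markers to 15.0 against 7.0 and 6.88 against 4.47, mural markers to 3.40 against 4.06 and 5.61 against 5.64, stromal markers to 5.96 against 6.17 and 5.13 against 3.21, C cell markers to 4.65 against 4.87 and 3.21 against 4.32, parathyroid markers to 5.51 against 2.31 and 3.58 against 3.72, and erythroid markers to 8.04 against 5.91 and 0.408 against 2.31. The part of depth and of RNA of other cells in the tissue differences was not tested. In TFCOs the same lists of other cell types summed to at most 2.98 in either set of cells, and TFC markers were 1.18 to 1.41 times higher in high-Tg cells.

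The test of tissue against TFCO differences called 308 genes (6.55%, limma, adjusted over 4703), 176 larger in tissue (3.74%) and 132 smaller (2.81%), with 1165 at an unadjusted p under 0.05 (24.8%). It did not hold up. With weights estimated per sample 0 genes were called, and without any 1 of the TFCO samples 0 to 23, the 0 being without early sample 1. Without tissue sample 1 the count was 1919 and without tissue sample 2 it was 1817, with the lone tissue sample assumed to vary like the other groups. Values are therefore given side by side. Ctsl differed by 1.81 in tissue and 0.52 in TFCOs. Krt8 was 1.54 against 0.472 and 1.25 against 0.434 in high-Tg and low-Tg tissue cells, opposite in direction to TFCOs. Likewise mt-Co1, mt-Nd4 and mt-Cytb gave -0.49, -0.76 and -0.58 in tissue, and 0 of 6 mitochondrial genes was higher in both tissue samples. Ccn4 gave -0.24 in tissue, from 2 and 69 UMIs in 3.57% and 9.26% of the TFC-like cells of samples 1 and 2.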

How the data were processed

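Thyroid tissue and TFCO cells were sequenced by SORT-seq (CEL-seq2 chemistry). The authors deposited values scaled to 10000 UMIs per cell and taken to the natural log after 1 was added. The submitters' processing notes name Trim Galore 0.4.3, STAR 2.5.3a, Seurat and GRCm38 (mm10), with no role given, and the annotation is not given in the sources used here. Whole UMIs were recovered from the deposited natural log values, where 100% of non-zero values were whole within 0.01. Cells under 1000 UMIs were left out.

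Tissue cells were clustered without Tg (scanpy 1.11.5, 2000 variable genes, 30 components, 15 neighbours, Leiden resolution 1) and named from marker lists. No doublet caller was run. The rule that set 8 cells aside was chosen after values were seen, as were thinning to 1000 UMIs and leaving out the 2 cell cycle clusters or the 2 deepest cells. Sample values were compared by exact permutation tests. High-Tg minus low-Tg differences, with a pseudocount of 1 and a mean of at least 0.5, were tested with limma 3.58.1 in R 4.3.3 (trended variance, Benjamini-Hochberg, threshold 0.05). The same steps were run on simulated data with 200 of 4703 genes changed. They called 166 genes, 13 of them wrongly. Of genes changed 1.25-, 1.5- and 2-fold, 41.8%, 88.1% and 100% were called. A true log2 of 1 had a median estimate of 0.57. Named genes were the 10 highest and 10 lowest correlations with Tg in TFCOs, the 5 highest and 5 lowest in tissue, the 3 largest differences of each list, and the 5 largest rises and falls called with 1 sign in 5 samples. Some genes that this rule names are not reported here. Other genes named were chosen after their values were seen. Tg and the lists were chosen with earlier results of these data known. Intervals and limits cover counting error only.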

Additional observations from a re-analysis of the deposited data

Results flagged for a closer look

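For 21 named genes the difference between high-Tg and low-Tg cells was not the same in tissue and TFCOs by the test of that difference (limma, adjusted p from 0.00581 to 0.0452), although 0 genes were called with weights per sample or without early sample 1. Tissue minus TFCO was positive on the log2 scale for Cpq (1.60), Ager (1.56), Itm2c (1.56), Cdh16 (1.37), Bcam (1.30), App (1.30), Ctsl (1.29), Gm49980 (0.9993), Krt8 (0.99), Ctsb (0.80), Slc26a7 (0.76), Napsa (0.72), Pdia6 (0.67) and Alk (0.67). It was negative for Dcpp3 (-1.15), mt-Nd4 (-1.02), Ccn4 (-0.90), Pde10a (-0.88), mt-Cytb (-0.84), mt-Co1 (-0.82) and Hspa1b (-0.71). Over all genes tested the same test called 6.55%. Ager, Itm2c, Bcam, App, Cpq and Pde10a were named for their correlations with Tg in these same tissue samples. The others were named from TFCO values that the test also uses. The number of named genes called is therefore no support. Dcpp3 had 0 and 1 UMIs in the TFC-like cells of tissue samples 1 and 2, so its value mirrors the TFCO difference.

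Cells under 1000 UMIs, used in no comparison, also held Tg. They carried 806 and 875 Tg UMIs in tissue samples 1 and 2, 187, 105 and 598 in late samples 1 to 3, and 571 and 341 in early samples 1 and 2, in 78, 91, 55, 22, 116, 143 and 50 cells. Their median levels were 83.2 and 111 UMIs per 10000 in tissue, 70.2, 60.7 and 112 in late and 59.8 and 103 in early samples.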

How the results depend on the processing

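Under all alternatives Tg stayed lower in TFCOs than in tissue, by -3.74 to -2.94 on the log2 scale. Leaving out 1 sample gave -3.74 to -3.28, and without a TFCO sample the exact p was 0.0667, the smallest then possible. Leaving out 1 sample took late minus early from -0.18 to 0.76, the CV difference of TFCOs and tissue from -0.184 to 0.0696, and that of late and early from -0.0611 to 0.00507. The CV difference of TFCOs and tissue was 0.0238 with a minimum of 2000 UMIs and 0.0827 at Leiden resolution 0.5. Tg in tissue cells of other types was 17.997 as a median over cells and 27.9 as a mean.

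Of high-Tg against low-Tg calls in TFCOs (77), 42 were made with no filter, 150 with outer tertiles, 171 with summed UMIs, 25 without cells of at least 4 cell cycle genes, 28 after thinning, and 29 to 84 without 1 sample. Calls held under every alternative included Ccn4, Ctsl, Dcpp3, Napsa and Scg5. Those of Mt1 and Mt2 held wherever both genes were tested. With barcode correlations of 0.0596 and 0.0784, above 0.05, they were absent from the alternative without genes that follow the well barcode. Late minus early gave 1 call with depth bins and 1 after thinning, and 0 to 1 without 1 sample. Tissue minus TFCO (308) gave 497 with a pseudocount of 0.1, 499 with no filter, 199 summed, 139 without cycling cells, 0 with weights per sample, 113 after thinning, and 0 to 1919 without 1 sample. Of the 10 lowest correlations 5 were shared after thinning, 6 without cycling cells and 6 to 9 without 1 sample.

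Differences that turned sign, none of them called, were Pax8 (-0.0026) and Pcna (0.0722) without cycling cells, Areg (-0.0035) and Mdn1 (0.0041) after thinning, Fos (0.0510) and Cwc27 (0.0419) with outer tertiles, Bcam (-0.0564), Dclk2 (0.0142) and Mdn1 (0.0149) with summed UMIs, Dclk2 (0.0142) with a minimum of 2000 UMIs and Mdn1 (0.0014) with a pseudocount of 0.1. Without 1 sample, Gnas from -0.16 to 0.0069, Egr1 from -0.0113 to 0.17, Fos from -0.165 to 0.0393, Bcam from -0.0097 to 0.11 and Mdn1 from -0.0663 to 0.0428 lay on both sides of 0.
The cause of these changes was not tested. No paired analysis was possible because replicate numbers only name samples, and each high-Tg against low-Tg difference was already taken within a sample.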
